A study of Macaca mulatta with 6 samples.

Results

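The male naive and male primed induced pluripotent stem cell (iPSC) lines of rhesus monkey were compared across 8349 genes, chosen from 30246 gene rows by 4 conditions on their 4 libraries. A gene needed a symbol in the deposited tables, an untroubled quantification status in all 4 libraries, a locus spanning at least 1500 bp, and FPKM of 5 or more in at least 2 of the 4 libraries. FPKM counts sequenced fragments relative to transcript length and to the library's size, so it can be read as a level per unit length. The conditions do not ask which state is higher, but a gene expressed in 1 state only enters through that state. In all, 7251 of the genes reached 5 FPKM in all 4 libraries, 202 entered only through the naive libraries and 190 only through the primed libraries. At the lower limit, MBLAC2, WNK3 and TRAF5 were just inside, with a second highest FPKM of 5.0004, 5.0006 and 5.0068, and SENP8, MAMU-E and CTSK were just outside, at 4.9996, 4.9991 and 4.999.

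The cells were reprogrammed from fibroblasts, and RNA from 6 lines was sequenced. The 2 male naive lines were kept in 15% serum replacement with 4 ng/ml bFGF, 10 ng/ml LIF and 4 kinase inhibitors. These were 3 µM CHIR99021 against GSK3, 0.5 µM PD0325901 against MEK, 10 µM SB203580 against p38 and 10 µM SP600125 against JNK. The 2 male primed lines were kept in 20% serum replacement with bFGF, and no inhibitor is named for them. The 2 female naive lines, grown in the naive medium, enter the estimate of the spread between libraries in every test below, and are set against the male naive lines at the end. Medium, state and line differ together between the compared groups and cannot be told apart, and no label ties a line to its donor.

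Primed pluripotent cells resemble the epiblast after implantation and depend on FGF and Activin or Nodal signals, whereas naive cells resemble the epiblast before implantation. In the mouse the naive state is held by LIF, acting through STAT3, together with block of MEK and of GSK3, which frees beta-catenin. MEK passes the FGF signal on to ERK, and ERK induces its own feedback inhibitors, such as the Sprouty proteins and the dual-specificity phosphatases, and the ETV transcription factors.

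The 2 male naive libraries were the shallowest. The fragments behind each value, estimated from its deposited bounds and called effective fragments here, had a median of 78.0 and 65.2 per gene in the male naive libraries, against 445.7 and 346.8 in the primed libraries. In the male naive libraries 11.1% and 14.5% of the genes had fewer than 20 effective fragments, against 1.1% and 1.0% in the primed libraries. Pearson's r of log2(FPKM + 1) over genes (not independent replicates) was 0.978 between the male naive libraries, 0.943 between the primed libraries and 0.901 to 0.927 between a male naive and a primed library.

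The 2 male naive libraries differed from each other by little more than counting error. Over 7013 genes with 20 or more effective fragments in both, their mean squared log difference was 1.15 times the counting variance. The same ratio was 35.79 for the primed pair and 23.6 for the female naive pair. Among the 4134 genes with 20 to under 100 effective fragments it was 0.98 for the male naive pair (chi-square p = 0.85), and among the 392 genes with 500 or more it was 2.64 (chi-square p = 1.27e-59). The labels call the male naive libraries separate lines, and they were kept as n = 2. The better covered genes differed beyond counting error, but that chi-square test treats genes as independent. It cannot tell separate lines from repeat libraries of 1 line. The p-values below rest on a spread pooled over the male naive, female naive and primed pairs, and few of the calls remained when the male naive libraries were averaged into 1.

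**Figure D1:**
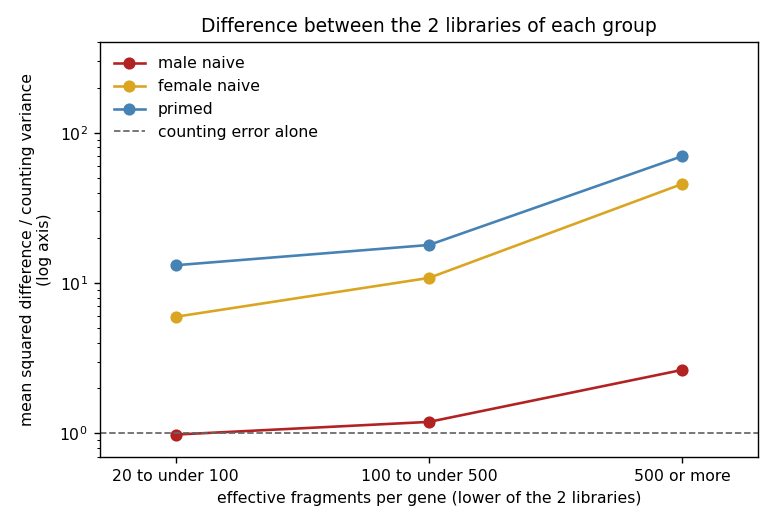
Mean squared difference between the 2 libraries of a group divided by the counting variance (log axis), for genes grouped by effective fragments in the lower of the 2 libraries. The male naive pair goes from 0.98 to 2.64, and the primed pair from 13.13 to 69.83. The dashed line at 1 marks counting error alone.

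Of 8348 genes tested, 356 (4.26%) differed between male naive and primed lines at a limma adjusted p under 0.05, 247 of them higher in male naive (2.96%) and 109 lower (1.31%). Over all 13685 tested rows the shares called were 5.39%, 3.97% and 1.42%. A further view without a test gives 3059 genes whose 2 male naive values both lay above both primed values (36.6%) and 1776 below (21.3%). Of these, 370 and 232 also differed by 2-fold or more in mean FPKM. All 247 genes called higher and all 109 called lower were among the 3059 and 1776, so lack of overlap adds nothing to a call. Of the 247 higher genes 55 had entered only through the male naive libraries, and of the 109 lower genes 40 only through the primed libraries, so these had to differ. The called genes had a median log2 difference of 1.28 when higher and -1.36 when lower, and 252 of the 356 differed by at least 1 on this scale. Every difference below is male naive minus primed on the log2(FPKM + 1) scale unless stated, and the median over the 8348 genes was 0.10. Other scalings put that median between -0.06 and 0.30, so list medians are best read against it, and list counts against the 2.96% and 1.31% called higher and lower.

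Few single calls held when 1 library was removed. With the male naive libraries averaged into 1, an alternative chosen after the data were seen, 5 of the 8348 genes were called: WDR1, HAS3, NMRK2 and TUBA4A higher and RGS2 lower. The 356 calls shrank to 15 and 6 without the first and the second male naive library, to 71 without the first primed library and to 165 without the second, while all 356 differences kept their sign in each of these fits. The female naive libraries, which are not compared here, mattered too: 134 and 123 of the calls remained without the first and the second of them, and 129 with only the 4 compared libraries. The kept signs were fixed in advance and add no support, since no called gene overlapped between the compared groups. The split between higher and lower also depended on scaling. Upper-quartile scaling gave 149 higher and 224 lower, quantile normalization 158 and 200, and median-of-ratios scaling 168 and 157. Leaving rows under 1500 bp out of fit and scaling gave 943 and 93. The counts for gene groups below therefore describe direction and size, and the calls of single genes rest on the closeness of the 2 male naive libraries and on the spread pooled with the female naive pair.

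**Figure D2:**
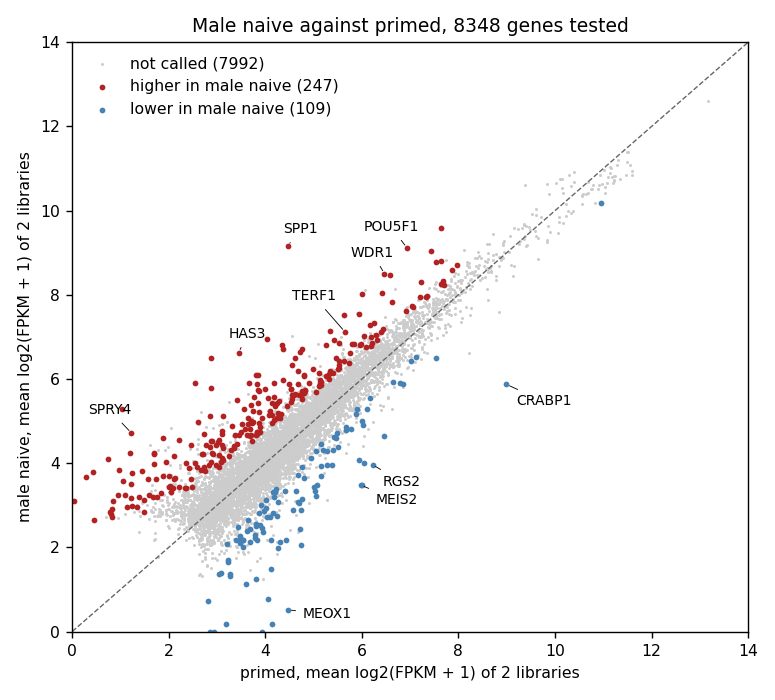
Mean log2(FPKM + 1) of the 2 primed libraries (horizontal) and of the 2 male naive libraries (vertical), 1 point per gene tested. Red points are the 247 genes called higher and blue points the 109 called lower in male naive, and the dashed line marks equal levels.

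HAS3, TUBA4A, WDR1 and RGS2 were the 4 genes called in the main fit and under each of 20 alternatives, and TUBA4A, WDR1 and RGS2, like NMRK2 above, were singled out after their values were seen. HAS3 makes hyaluronan, a polysaccharide of the matrix around cells, and lies on chromosome 20 from 67484258 to 67494138 in the coordinates of the deposited tables. Its FPKM was 96.7 and 98.9 in male naive versus 9.64 and 10.2 in primed libraries, a 9.87-fold difference of means (log2 difference 3.18, SE 0.23, limma adjusted p = 0.00303). Both male naive values lay far above both primed values, and the values within a group were close. TUBA4A, an alpha tubulin on chromosome 12 from 83104932 to 83109138, was at 31.8 and 29.6 FPKM in male naive versus 5.21 and 4.89 in primed libraries (log2 difference 2.39, SE 0.16, limma adjusted p = 0.00269), though alpha tubulin genes are similar enough to share reads. WDR1 promotes the disassembly of actin filaments and lies on chromosome 5 from 4960176 to 5004443. It stood at 338.0 and 386.5 FPKM against 80.3 and 95.3 (log2 difference 2.03, SE 0.14, limma adjusted p = 0.00303), but its male naive values rest on 17.3 and 7.7 effective fragments. RGS2 dampens signalling by G proteins and lies on chromosome 1 from 177795007 to 177798265. It had 16.7 and 12.7 FPKM in male naive versus 68.3 and 79.3 in primed libraries, 5.01-fold lower in mean (log2 difference -2.26, SE 0.18, limma adjusted p = 0.00401).

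The largest rises were taken among called genes with at least 20 effective fragments in male naive. CXCL14, TDGF1 and NMRK2 (log2 differences 4.27, 3.35 and 3.04) had fewer on average there and were left out of this ranking. SPP1, which encodes the secreted matrix protein osteopontin, had 550.2 and 593.0 FPKM in male naive versus 11.5 and 37.9 in primed libraries. Its means differed 23.1-fold (log2 difference 4.70, SE 0.49, limma adjusted p = 0.00836), the largest of these rises. The second primed library was the higher of the pair, and both primed values stayed far below the male naive ones. EOMES, a T-box factor of the primitive streak, was at 10.4 and 13.1 FPKM against 0.0558 and 0.393. EPHA1, an ephrin receptor, was at 13.6 and 19.4 against 0.201 and 1.31. ANXA3, a membrane-binding annexin, was at 55.8 and 53.1 against 3.71 and 10.3, and CYP11A1, the first enzyme of steroid hormone synthesis, at 6.73 and 8.68 against 0 and 0.0448. AP3B2, a subunit of a vesicle coat found in neurons, had 9.42 and 16.6 FPKM against 1.28 and 1.42, and the gene listed as NK-1 had 9.14 and 13.3 against 0.270 and 2.35. All of these stood apart between the groups, since only genes without overlap were taken. EOMES, EPHA1, CYP11A1, AP3B2 and NK-1 had entered only through the male naive libraries and so had to differ. L1TD1, ZSCAN10, SPRY4, ETV4, ETV5 and MYC, described next among pluripotency genes and ERK targets, were also among the largest rises, as was HAS3.

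**Figure D3:**
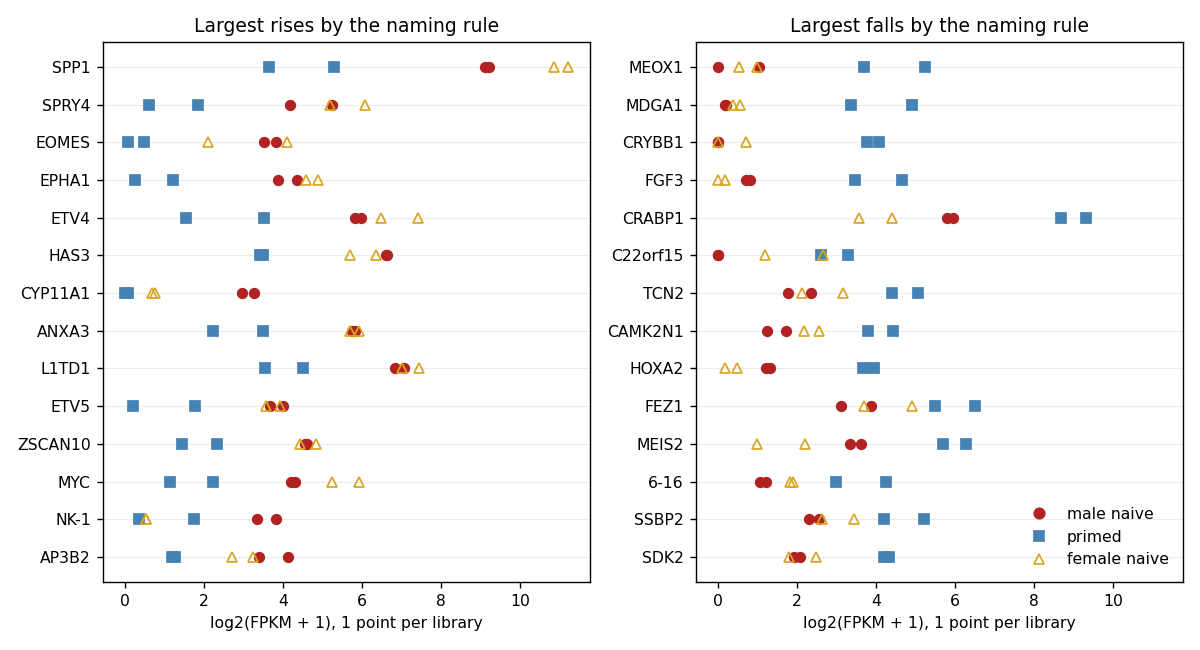
The largest rises (left) and largest falls (right) among called genes that are named in the text, 14 each, as log2(FPKM + 1) with 1 point per library. Only genes with 20 or more mean effective fragments in the higher group were taken. Male naive (circles) and primed (squares) do not overlap for any of these genes, since only genes without overlap were taken. The female naive libraries (triangles) are shown for comparison.

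In the general pluripotency list 6 of 11 members were called higher in the male naive lines and none lower, against 2.96% and 1.31% over all genes, with a median log2 difference of 1.47 against 0.10. Of the 6, 3 (ZSCAN10, TDGF1 and PRDM14) had entered only through the male naive libraries and so had to differ, and the count and median are a description. POU5F1, the core pluripotency factor OCT4, had 536.4 and 571.3 FPKM in male naive versus 134.6 and 109.2 in primed libraries, a 4.54-fold difference (log2 difference 2.18, SE 0.23, limma adjusted p = 0.00846). L1TD1, an RNA-binding protein of pluripotent cells, had 113.5 and 132.8 FPKM against 10.7 and 21.7, 7.60-fold. ZSCAN10, a zinc finger partner of the core factors, had 23.6 and 22.5 against 4.01 and 1.72. TDGF1, the Nodal co-receptor, was at 13.6 and 11.9 FPKM against 0 and 0.818, and TERF1, a telomere-binding protein, at 132.2 and 143.6 against 48.3 and 50.2 (log2 difference 1.47). PRDM14, the sixth called, had 6.73 and 8.60 against 0.52 and 1.13 and is named beyond the naming rule. None of these 6 genes overlapped between the groups, which holds for every called gene, and the 2 male naive values lay close together in each. SOX2, at 114.3 and 121.6 FPKM against 140.8 and 124.1, spans under 1500 bp and is no member, and its difference was -0.16. The main row of NANOG carries no symbol in the deposited tables, so it is no member either, and it was at 28.7 and 30.7 FPKM against 0.93 and 2.09.

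Only 1 of 22 naive-associated genes was a member, GBX2, a homeobox factor downstream of LIF and STAT3 in the mouse. It had 30.7 and 34.8 FPKM in male naive versus 26.7 and 18.1 in primed libraries (log2 difference 0.55, SE 0.35, limma adjusted p = 0.381). Of 8 rows of the list that were tested, member or not, 2 were called higher and none lower: NR5A2, at 2.62 and 3.77 FPKM against 0.21 and 0.12 (limma adjusted p = 0.0451), and ZFP42, the naive marker REX1, at 37.6 and 36.0 against 14.8 and 14.5 (limma adjusted p = 0.0368). NR5A2 stayed under the limit of 5 FPKM and ZFP42 spans under 1500 bp. KLF17, TFCP2L1, FGF4, ARGFX, DNMT3L, HORMAD1 and FBP2 were listed at 0 in all 4 libraries. A listed 0 is no measure of absence in these tables, since TPI1, an enzyme of glycolysis used by every cell, and LIN28A, an RNA-binding protein of pluripotent cells, were also listed at 0 in all 4. KLF4 was at 0.68 and 0.73 against 2.06 and 2.19 FPKM, KLF5 at 2.27 and 2.82 against 0.29 and 1.17, and TFAP2C at 2.97 and 3.21 against 0.57 and 1.37. These stayed under 5 FPKM and none was called.

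Primed-associated genes did not move in 1 direction: of 14 members, 1 was called higher and 1 lower, with a median of 0.36. DNMT3B, the de novo DNA methyltransferase, was the one called higher, with 107.2 and 114.0 FPKM against 33.4 and 41.9 (log2 difference 1.54, SE 0.16, limma adjusted p = 0.00822). ZIC2, a zinc finger factor of the primed epiblast, was the one called lower, with 60.4 and 59.8 against 93.3 and 103.8 (log2 difference -0.70, limma adjusted p = 0.0486). OTX2, a factor of the primed epiblast and anterior neural tissue, had 15.0 and 28.3 FPKM in male naive versus 0 and 8.21 in primed libraries. Its difference of 2.84 came with an SE of 1.10 and did not pass (limma adjusted p = 0.173). DNMT3A, the other de novo methyltransferase, had 39.6 and 36.6 FPKM against 27.7 and 24.7 and did not pass either.

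Of 17 targets of FGF and ERK, 6 were called higher in the male naive lines, whose medium held the MEK inhibitor, and none lower, with a median of 1.22. Of these members 4 had entered only through the male naive libraries, 3 of them among the calls (SPRY4, ETV5 and MYC), so the count and median are a description. SPRY4, a feedback inhibitor of receptor kinases, had 17.1 and 37.1 FPKM against 0.517 and 2.61 (log2 difference 3.49, SE 0.55, limma adjusted p = 0.0260). The ETS factors ETV4 and ETV5 were at 55.2 and 62.4 against 1.92 and 10.5, and at 11.7 and 15.1 against 0.141 and 2.40. MYC, a growth-promoting factor, had 18.6 and 17.3 FPKM against 1.22 and 3.70. IL17RD, an inhibitor of FGF receptor signalling also called SEF, had 53.5 and 62.5 against 14.2 and 12.1. In 15 of the 17 genes both male naive values lay above both primed values, against 36.6% over all genes. The median was 0.81 with a pseudocount of 5. DUSP6, the ERK phosphatase, named here beyond the rule, was at 88.7 and 94.6 FPKM against 51.1 and 46.5 and was not called. FGF2, which encodes bFGF itself, had 37.0 and 25.3 FPKM against 12.7 and 5.23 (log2 difference 1.78, limma adjusted p = 0.0694). FGF3 was the only FGF ligand or receptor of 10 called, and lower: 0.642 and 0.764 FPKM against 24.2 and 10.1. It had entered only through the primed libraries and so had to differ.

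Lists for the other factors of the medium held 1 call between them, where 4.26% of all genes were called, so a short list with no call is near that share. None of 10 LIF and STAT3 genes was called, at a median of 0.14, or 0.24 without the first male naive library. LIFR, the LIF receptor, had 7.02 and 9.11 FPKM against 1.62 and 3.15 (log2 difference 1.45, limma adjusted p = 0.0673), and PIM1, a kinase induced by STAT3, had 37.1 and 43.6 against 20.1 and 21.3 (0.92, limma adjusted p = 0.0634). In both genes the groups did not overlap, but LIFR had entered only through the male naive libraries and so had to differ. None of 19 WNT and beta-catenin targets was called, at a median of 0.17, or -0.09 without the second primed library and 0.02 without the second male naive library, and the members went both ways. TCF7 was at 18.2 and 25.5 FPKM against 12.6 and 5.92, and TCF7L2 at 8.11 and 7.83 against 12.6 and 10.9; both encode partners of beta-catenin. Of 11 AP-1 and immediate early genes, downstream of JNK and p38, 1 was called, CYR61, a matrix signalling protein, with 292.7 and 238.7 FPKM against 70.7 and 102.2 (log2 difference 1.63, SE 0.32, limma adjusted p = 0.0451). None of 13 genes of the JNK and p38 kinase cascades was called, at a median of 0.22. At an unadjusted p the background is high, since 2126 of the 8348 genes passed an unadjusted p under 0.05.

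Nodal and TGF-beta genes gave 3 calls of 16, all higher, while the median was 0.13, or 0.24 without the first primed library and 0.07 without the second. Among them were SKIL and PMEPA1, feedback inhibitors that TGF-beta induces, which had entered only through the male naive libraries. SKIL had 12.9 and 11.1 FPKM against 3.22 and 2.81 (log2 difference 1.69), and PMEPA1 9.96 and 6.53 against 1.16 and 1.49 (1.97). CER1, a secreted Nodal antagonist, was at 20.6 and 17.2 FPKM against 0.491 and 6.89. Its 2 primed values differed so much that the difference of 2.53 had an SE of 1.08 and did not pass (limma adjusted p = 0.205). BMP4 was the 1 call among 8 BMP genes, with 9.99 and 12.8 FPKM against 2.72 and 2.01 (log2 difference 1.88, SE 0.26, limma adjusted p = 0.0182). BMP4 too had entered only through the male naive libraries. The BMP targets ID3 and ID2 were at 144.5 and 139.6 against 93.8 and 99.4, and at 24.2 and 19.3 against 38.3 and 54.7, and neither passed.

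**Figure D4:**
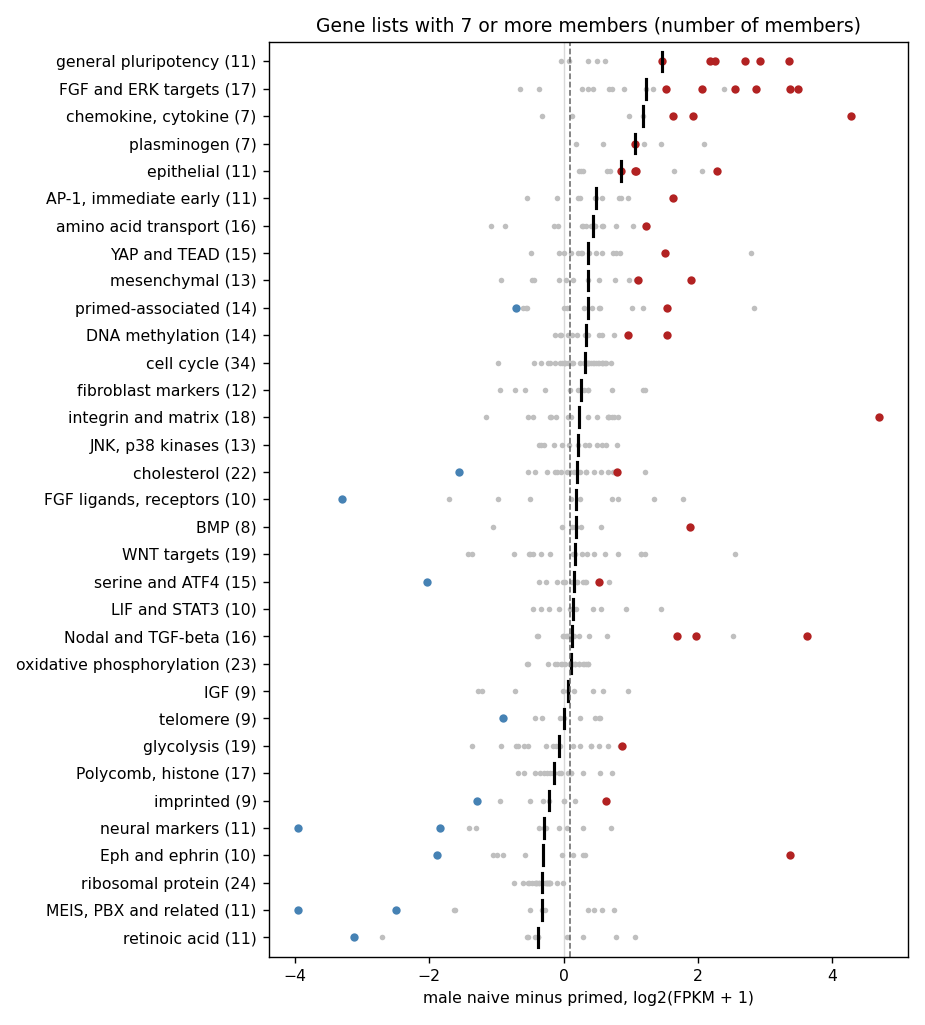
Male naive minus primed on the log2(FPKM + 1) scale for each member of lists with 7 or more members (1 such list is not shown), 1 point per gene. Red and blue points are genes called higher and lower, black bars are list medians, and the dashed line is the median of all 8348 genes. General pluripotency and FGF and ERK targets have the highest medians, 1.47 and 1.22.

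In the epithelial list 4 of 11 members were called higher in the male naive lines and none lower, with a median of 0.85. CLDN6, a tight junction protein of early epithelia, had 295.4 and 335.1 FPKM against 140.2 and 158.6 (log2 difference 1.07, SE 0.15, limma adjusted p = 0.0175). ESRP1, an epithelial splicing factor, had 13.7 and 16.03 against 1.36 and 3.47. The junction proteins JUP and PKP2 had 26.4 and 24.9 against 13.6 and 14.03, and 13.4 and 12.5 against 4.62 and 7.004. All 4 were apart between the groups, like every called gene, and ESRP1 had entered only through the male naive libraries. KRT8, a keratin of simple epithelia, was at 280.7 and 274.0 FPKM against 28.3 and 151.3 and did not pass, since the 2 primed libraries were far apart (log2 difference 2.06, SE 0.68). CDH1, the epithelial cadherin, stayed under 5 FPKM in the 4 libraries, at 2.12 and 2.16 against 0.08 and 1.58. In the mesenchymal list 2 of 13 members were called higher. Those were CALD1 and ACTN1, which bind and cross-link actin, while VIM, the mesenchymal filament protein, was at 451.3 and 372.7 FPKM against 642.3 and 500.8 and ZEB2, a repressor of epithelial genes, at 14.6 and 15.2 against 35.1 and 24.7, neither called.

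Genes of the actin cytoskeleton and its adhesion sites stood out after the values were seen, and a list of 79 such genes was drawn up then, so its counts are a description. Of 70 members, 62 had a positive and 8 a negative difference, the median was 0.75, and 23 were called higher and 1 lower. Among the 23, 2 had entered only through the male naive libraries. ACTG2, a smooth muscle actin, had 753.6 and 773.1 FPKM in male naive versus 197.1 and 197.9 in primed libraries (log2 difference 1.94, SE 0.23, limma adjusted p = 0.0113). ACTC1, the cardiac actin, had 181.5 and 185.2 against 42.1 and 55.5, and actin mRNAs are similar enough that reads may be shared between them. CALD1 had 376.7 and 337.7 FPKM against 92.6 and 97.4. CNN1, a calponin that binds actin, had 64.8 and 69.9 against 11.5 and 14.7. Of proteins at focal adhesions, VCL had 188.9 and 180.5 FPKM against 55.3 and 66.4, ZYX 81.0 and 78.2 against 22.4 and 22.6, FBLIM1 47.7 and 41.6 against 8.03 and 11.4, and VASP 65.8 and 65.7 against 23.9 and 30.3. FHL1, a LIM protein of muscle, was the 1 gene called lower, at 14.4 and 14.4 FPKM against 54.3 and 30.2. The list's median lay between 0.57 and 0.96 under every alternative scaling.

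**Figure D5:**
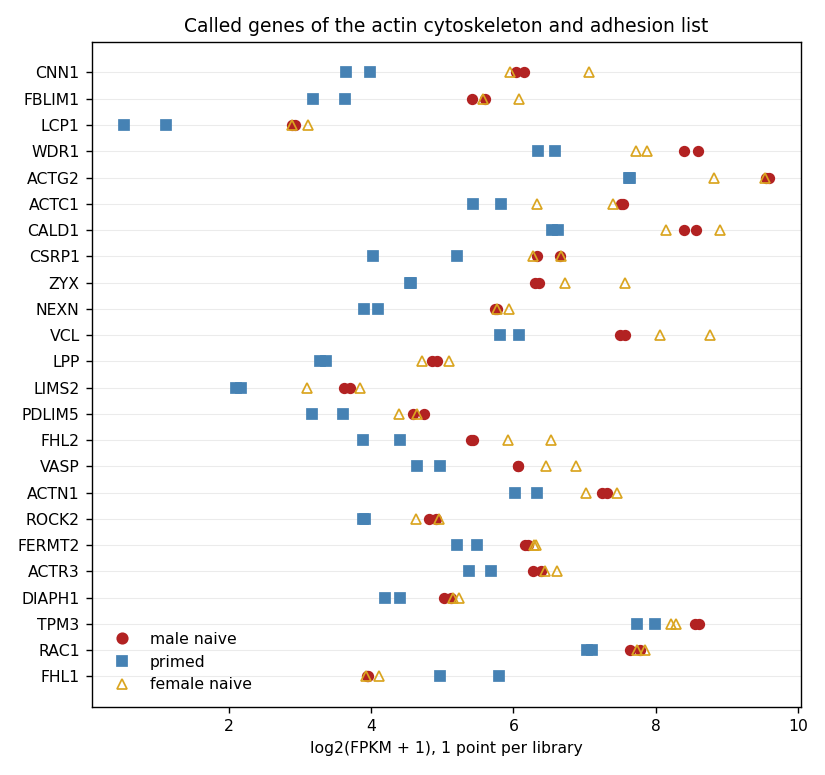
The 24 called genes of the actin cytoskeleton and adhesion list, as log2(FPKM + 1) with 1 point per library. In the upper 23 rows both male naive values (circles) lie above both primed values (squares), and in FHL1 they lie below. The list was drawn up after the values were seen.

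Fibroblast markers were read beside the actin genes because smooth muscle and actin genes are also high in fibroblasts, the cells of origin, and the labels state that feeder cells were removed before RNA extraction. None of 12 fibroblast members was called, at a median of 0.26, or -1.16 without the first primed library and 0.66 without the second. The differences were positive in 8 and negative in 4. In 3 members both male naive values lay above both primed values and in 0 below, against 36.6% and 21.3% over all genes. Their list summed to 1954.7 and 1698.8 FPKM in male naive versus 646.8 and 1435.9 in primed libraries, most of it TAGLN, an actin-binding protein, at 1668.8 and 1449.8 against 511.8 and 873.2. FAP and DCN were listed at 0 in the male naive pair, which is no measure of absence, and PDGFRA was at 0.22 and 0.26 FPKM there. COL1A1, the main fibrillar collagen, had 53.1 and 42.0 FPKM in male naive versus 9.24 and 135.4 in primed libraries. LUM and POSTN had 19.9 and 13.0 FPKM in the second primed library and at most 1.88 and 1.33 in the other 3. The second primed library was therefore the highest of the 4 for these matrix genes, and the part of fibroblast RNA in the actin values was not tested beyond these levels. In bulk RNA such as this, fewer cells of a type and less RNA per cell cannot be told apart.

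Matrix receptors and basement membrane genes gave 1 call of 18, SPP1, at a median of 0.23, or 0.08 without the first primed library, 0.46 without the second and 0.13 without the first male naive library. The integrins ITGA6 and ITGB5 had 95.4 and 88.3 FPKM against 50.05 and 66.4, and 39.1 and 37.0 against 20.1 and 27.0. NID2, a basement membrane protein, had 15.1 and 12.8 against 39.1 and 26.5. None of these 3 passed, though each was apart between the groups. In the plasminogen system 7 of 7 members had a positive difference, with a median of 1.07 and 1 call, SERPINE2, an inhibitor of thrombin and the plasminogen activators, at 47.4 and 48.7 FPKM against 19.5 and 26.1. Without the first primed library that median was 0.33. PLAU, the urokinase activator, was at 27.7 and 28.7 against 2.38 and 12.8 and did not pass. Among secreted signals CXCL12, a chemokine that guides migrating cells, had 71.7 and 54.3 FPKM against 20.0 and 19.2 (log2 difference 1.62, SE 0.19, limma adjusted p = 0.0115). CXCL14, another chemokine, had 39.7 and 36.8 against 0 and 3.13, and TNFRSF12A, the receptor for TWEAK, 94.1 and 103.8 against 19.05 and 33.8. These were 3 calls of 7 chemokine and cytokine members, and CXCL14 had entered only through the male naive libraries. HAS2, the second hyaluronan synthase, had 11.5 and 14.8 FPKM against 1.29 and 2.28 (log2 difference 2.36) and is named after its values were seen. HAS2 had entered only through the male naive libraries. With HAS3 it made 2 calls among 6 hyaluronan genes, a list drawn up after the values were seen, at a median of 0.24, or 0.46 without the second primed library.

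The largest falls were taken in the same way, with at least 20 effective fragments in primed. MEOX1, a homeobox factor of the somites, was at 1.04 and 0 FPKM in male naive versus 37.0 and 11.9 in primed libraries (log2 difference -3.95, SE 0.59, limma adjusted p = 0.0219). MDGA1, an adhesion protein of neurons, was at 0.129 and 0.153 against 29.1 and 9.37. CRYBB1, a lens crystallin, was listed at 0 in the male naive pair and at 15.9 and 12.7 FPKM in the primed ones, and was called in all 4 fits that leave out 1 compared library. HOXA2, a hindbrain homeobox gene, was at 1.47 and 1.31 against 14.6 and 11.7. CRABP1, a carrier of retinoic acid in the cell, was by far the most abundant of the falls. It had 60.7 and 54.6 FPKM in male naive versus 407.6 and 633.9 in primed libraries, 9.03-fold lower in mean (log2 difference -3.12, SE 0.32, limma adjusted p = 0.00832). TCN2, the carrier of vitamin B12, had 2.44 and 4.08 FPKM against 32.2 and 20.3, CAMK2N1, an inhibitor of a calcium-dependent kinase, 1.37 and 2.27 against 20.6 and 12.9, and FEZ1, a protein of axon growth, 13.5 and 7.64 against 89.8 and 44.1. SSBP2, a DNA-binding cofactor, had 4.88 and 3.91 against 17.6 and 36.1, and SDK2, a synaptic adhesion protein, 2.77 and 3.18 against 17.3 and 19.2. The gene listed as 6-16 was at 1.10 and 1.304 FPKM against 6.88 and 17.9, and C22orf15 was listed at 0 in the male naive pair against 8.72 and 5.05. Except for CRABP1 and FEZ1, the falls named in this paragraph had entered only through the primed libraries and so had to differ. In 10 of the 14 falls plotted the first primed library was the higher of the 2, and in 6-16, SSBP2, SDK2 and CRABP1 the second was.

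Of 11 neural markers 2 were called lower and none higher, with a median of -0.29. NCAM1, the neural cell adhesion molecule, had 6.87 and 5.92 FPKM in male naive versus 30.5 and 21.3 in primed libraries (log2 difference -1.85, SE 0.33, limma adjusted p = 0.0334), and MDGA1 was the other. MDGA1 had entered only through the primed libraries and so had to differ. ZNF521 was at 7.61 and 7.87 against 23.7 and 17.9, and PAX6, the master factor of neuroectoderm, at 4.25 and 2.10 against 14.2 and 6.53, neither called. NEFM, a neurofilament, was at 18.7 and 15.4 FPKM against 12.8 and 14.7, so the members went both ways. The list median was -0.84 without the first primed library, -0.47 without the first male naive library and -0.11 without the second, and -0.09 with rows under 1500 bp left out. The summed list was 383.6 and 255.2 FPKM in male naive versus 377.5 and 532.1 in primed libraries. NEUROD1 and NEUROG2, which commit cells to neurons, were each at 0.18 FPKM or less in both male naive libraries, and in the primed ones NEUROG2 reached 3.17 in the first and NEUROD1 stayed at 0.07 or less.

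The list of MEIS, PBX and other homeobox genes, which includes cofactors of HOX proteins, had 2 of 11 called lower and a median of -0.32. MEIS2 was at 11.3 and 9.10 FPKM against 76.0 and 50.7, 6.21-fold lower in mean (log2 difference -2.50, SE 0.42, limma adjusted p = 0.0296). The other was MEOX1, which is outside the MEIS and PBX class and had entered only through the primed libraries. MEIS3 and PKNOX2 had 19.2 and 21.3 against 43.4 and 94.1, and 3.47 and 2.12 against 13.4 and 8.41. TGIF1, a repressor of the homeobox class of MEIS and PBX, was at 91.9 and 108.4 FPKM against 52.2 and 66.2, in the opposite direction, and none of these 3 passed. Of 11 retinoic acid genes only CRABP1 was called, at a list median of -0.38 (-0.13 without the first male naive library and -0.60 without the second). RARB, a retinoic acid receptor and itself a target of retinoic acid, had 2.34 and 0.694 FPKM against 29.5 and 6.80 and did not pass (log2 difference -2.70, SE 0.66, limma adjusted p = 0.0694). Only 2 HOX genes were members: HOXA2 was called lower and had entered only through the primed libraries, and the other was at -0.06.

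Ephrins and their receptors split. Besides EPHA1, which was higher, the ligand EFNB3 was called lower, at 1.26 and 1.99 FPKM against 10.2 and 7.19 (log2 difference -1.88, SE 0.28, limma adjusted p = 0.0215). Each had entered only through the libraries of the state where it was higher, and so had to differ. EFNB1 and EFNB2 were at 26.4 and 25.4 against 57.2 and 42.4, and at 24.7 and 23.5 against 38.4 and 34.7, and did not pass. The median of the 10 members was -0.30. Of the other differentiation markers, 1 mesoderm gene was a member, EOMES, and MIXL1 and GSC, other streak genes, were tested but not called. MIXL1 was at 3.34 and 8.75 FPKM against 0.71 and 0.75, and GSC at 4.08 and 0.88 against 0.26 and 1.17. None of 3 endoderm, 4 trophoblast and 1 germ cell members was called.

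The metabolic lists held at most 2 calls each, where 4.26% of all genes were called. SLC16A1, a lactate and pyruvate transporter, was the 1 call of 19 glycolysis members, at 103.9 and 91.3 FPKM against 52.1 and 54.0 (log2 difference 0.86, SE 0.14, limma adjusted p = 0.0278), and the list median was -0.07, or -0.45 without the first primed library and 0.34 without the second. HK2, PFKL and PFKM, which catalyse early steps of glycolysis, were at 23.5 and 21.8 against 39.6 and 34.3, 37.4 and 36.3 against 50.5 and 61.9, and 38.6 and 37.0 against 57.1 and 53.02, and did not pass. None of 23 oxidative phosphorylation members was called, at a median of 0.11. In cholesterol synthesis 1 of 22 was called higher, SQLE, squalene epoxidase, at 68.0 and 69.6 FPKM against 37.96 and 40.5, and 1 lower, TM7SF2, a sterol reductase, at 4.28 and 2.60 against 10.5 and 13.5. TM7SF2 had entered only through the primed libraries. Of 15 serine and ATF4 genes, PSAT1, an enzyme of serine synthesis, was called higher at 286.7 and 310.1 against 204.0 and 208.2, and DDIT4, an inhibitor of mTORC1, lower at 14.5 and 15.8 against 49.6 and 85.0 (log2 difference -2.03, SE 0.29, limma adjusted p = 0.0199). SLC7A6, an amino acid exchanger, was the 1 call of 16 transporters, at 25.1 and 28.9 against 11.4 and 10.5.

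Ribosomal protein genes had small negative differences: none of 24 members was called, yet all 24 had a negative difference, with a median of -0.32, and 22 had both male naive values below both primed values, against 21.3% over all genes. RPL3 had 1873.8 and 1828.4 FPKM in male naive versus 3616.1 and 2656.3 in primed libraries (log2 difference -0.74, limma adjusted p = 0.0648). The members are the longer ribosomal protein loci, since loci under 1500 bp were left out, and 4 ribosomal protein rows outside the members, RPL37, RPS2, RPS6 and RPS27, were called higher. Near-identical copies of these genes make each of their levels uncertain. Rows under 300 bp held 22.3% and 24.4% of all FPKM in male naive versus 9.3% and 14.9% in primed libraries, which moves the share left for longer genes, and the part of this in the ribosomal values was not tested. The median stayed negative under each scaling, from -0.49 to -0.11.

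Among regulators of the cell cycle none of 34 members was called, at a median of 0.32, or 0.14 without the first primed library, 0.21 without the second male naive library and 0.09 under quantile normalization. RRM2, the small subunit of ribonucleotide reductase, was at 164.6 and 169.6 FPKM against 120.5 and 112.5, and CCNA2, cyclin A2, at 102.9 and 109.7 against 65.8 and 76.3. DNMT3B and ZFP57, a guardian of methylation at imprinted loci, were the 2 calls of 14 genes of DNA methylation, and ZFP57 was at 9.92 and 9.84 FPKM against 4.48 and 4.73. ZFP57 had entered only through the male naive libraries. None of 17 Polycomb and histone genes was called. Nor was any of 9 IGF and 5 interferon members, and the interferon list does not hold the gene listed as 6-16, which was called lower. Of 9 imprinted genes, SNRPN was called higher, at 248.1 and 247.1 against 170.2 and 150.3, and L3MBTL1 lower, at 3.79 and 3.30 against 8.72 and 11.6. L3MBTL1 had entered only through the primed libraries. AMOTL1, which holds YAP in the cytoplasm, was the 1 call of 15 genes in the YAP and TEAD list, at 69.9 and 73.0 FPKM against 26.6 and 22.6. CYR61, called higher, was counted with the immediate early genes and not in this list. TINF2, of the telomere-capping complex, was the 1 call of 9 genes in the telomere list, and lower, at 7.06 and 8.30 against 14.4 and 16.1. TERF1, the telomere-binding protein called higher (log2 difference 1.47), was counted with the pluripotency genes and not in this list.

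The female naive lines were set against the male naive lines to see where the 2 naive groups differ, over the same genes. The female naive libraries took no part in choosing these genes. Genes high only in male naive lines could enter, and genes high only in female naive lines could not. Of 8348 genes, 168 (2.01%) were called in this test (3.31% of all tested rows). Sex, line and sequencing depth differ together between these groups and cannot be told apart. Among the 247 genes higher in male naive than in primed lines, 9 were higher and 8 lower in female than in male naive lines, and among the 109 lower genes 6 and 6 were. TDGF1 was at 93.4 and 111.2 FPKM in female naive libraries, against 13.6 and 11.9 in male naive (female minus male 2.90, SE 0.30, limma adjusted p = 0.00872). Its male naive values rest on fewer than 20 effective fragments on average. CRABP1 was at 10.9 and 20.4 against 60.7 and 54.6 (-1.88, limma adjusted p = 0.0387), and CYP11A1 at 0.696 and 0.595 against 6.73 and 8.68 (-2.39, limma adjusted p = 0.0101). The 2 naive groups thus lay on different sides of each other from gene to gene, and for HAS3, at 50.9 and 81.6 FPKM in female naive libraries, the difference of -0.59 did not pass (limma adjusted p = 0.203). Both naive groups were compared with the primed libraries, so their differences from primed share those libraries and are not independent.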

How the data were processed

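The authors' deposited values were FPKM per gene, each with a lower bound, an upper bound and a status, per the file headers, 1 table per library. The submitters' processing notes name TopHat 1.3.0 as aligner. Build, annotation release and quantifier version: not given in the sources used here. Printed coordinates keep the deposited tables' numbers with 1 added to each start. Effective fragments were estimated per value as (2 FPKM / (upper bound - FPKM)) squared and cover counting error only. Groups came from sample titles. Rows reaching 1 FPKM in 2 or more of 6 libraries were fitted on log2(FPKM + 1), which understates the change of low genes, with limma 3.58.1 in R 4.3.3. The fit had a mean per group for 3 groups of 2 libraries, trended moderation, 3 residual degrees of freedom and two-sided tests, with Benjamini-Hochberg adjustment over all 13685 rows. The fit was tested on simulated data that gave every group the spread of the primed pair, unlike the real male naive pair. There it called 11 and 8 of 50 genes changed by 1 and -1 on the log2 scale. Of those changed by 2 and -2 it called 48 and 46 of 50, so most simulated differences of 1 were missed. Fewer rows were changed there than were called in the real data, so it does not give the share missed in the real data. An exact permutation test of 2 against 2 cannot go below p = 0.333.

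The members and lists were chosen with earlier results of these data known, and 4 of 45 lists after the values were seen (actin cytoskeleton, neuronal adhesion and guidance, ribosome biogenesis, hyaluronan). Named genes are the 15 largest rises and 15 largest falls among called, non-overlapping genes with 20 or more mean effective fragments in the higher group, up to 5 members per list by smallest p, and a few marker genes; any others were named after their values were seen. Some genes that the rule gave are left out. Alternatives covered scaling, pseudocount, filters, moderation, weights, thinning, the replicate block and leaving out each library. No paired fit was the main one, since same-numbered libraries did not deviate together.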

Additional observations from a re-analysis of the deposited data

Results flagged for a closer look

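A difference between the female and the male naive lines passed limma's adjusted p under 0.05 for 11 genes named in the text, each given here as female minus male naive on the log2(FPKM + 1) scale. Female naive lines were lower for NK-1 (-3.06), CYP11A1 (-2.39), ZEB2 (-1.99), CRABP1 (-1.88), PSAT1 (-1.46), RGMB (-1.30), VIM (-1.06), CCNA2 (-0.77) and SQLE (-0.76). They were higher for TDGF1 (2.90) and TERF1 (0.74). The adjusted p-values ran from 0.00345 for PSAT1 to 0.0429 for CCNA2. CYP11A1 and NK-1 were at 0.696 and 0.595 and at 0.436 and 0.449 FPKM in female naive libraries, near the primed levels. The largest rises of the male naive lines thus include genes that were low in the other naive group. Both had entered only through the male naive libraries, and such a choice favours genes that are lower in female naive lines. Sex, line and depth cannot be told apart here.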

How the results depend on the processing

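The main counts were 738 rows called (543 higher, 195 lower), 247 higher and 109 lower members, and 453 rows called between the naive groups; counts below keep that order. Upper-quartile scaling gave 748 (391 higher, 357 lower), 149, 224 and 325, quantile normalization 693 (399 and 294), 158, 200 and 341, and median-of-ratios scaling 673 (418 and 255), 168, 157 and 333. Leaving rows under 1500 bp out of fit and scaling gave 1296, 943, 93 and 526, no filter on low values 400, 103, 36 and 268, and only the 4 compared libraries 348, 104, 36 and, between the naive groups, 499. Thinning to the lowest total gave 201, 68, 16 and 132, precision weights 574, 204, 62 and 404, and moderation without a trend 672, 163, 89 and 409. A pseudocount of 0.1 or 5 and a filter at 5 FPKM gave 652 to 760 rows called. Leaving out 1 library gave 51 to 626, 4 to 238, 3 to 93 and 41 to 523. With the male naive libraries averaged, chosen after the data were seen, the counts were 32, 4, 1 and 36. The replicate block gave 373, 113, 42 and 207, and 148 of the 356 calls remained. Same-numbered libraries did not deviate together (r = -0.05 between male naive and primed), so the numbers are not taken to pair them.

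Of the 356 called members, 355 kept their sign when thinned and all 356 under each other alternative, and 6 were called in all 4 fits that leave out a compared library: HAS3, TUBA4A and WDR1 higher, CRYBB1, GNG4 and RGS2 lower. In the fits that leave out a library the sign of a called gene could not change, since none overlapped between the compared groups. COL1A1, not called at 0.37, was at -1.50 without the first primed library and 2.24 without the second. Depth limits low genes most in the male naive libraries, where 11.1% and 14.5% of the genes had under 20 effective fragments.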

Other observations

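Genes of neuronal adhesion and axon guidance, in a list drawn up after the values were seen, split into 10 lower and 4 higher calls of 36 members, at a median of -0.30 on the log2(FPKM + 1) scale. Of the 10 lower genes 5 had entered only through the primed libraries, and of the 4 higher genes 1 only through the male naive libraries. NRCAM, an adhesion protein of axons, had 3.78 and 3.29 FPKM in male naive versus 19.7 and 13.6 in primed libraries (log2 difference -1.94, SE 0.28, limma adjusted p = 0.0191). RGMB, a BMP co-receptor, had 15.5 and 16.1 against 73.4 and 49.3, and BOC, a Hedgehog co-receptor, 7.93 and 8.83 against 40.7 and 25.0. SEMA5B, a semaphorin, had 9.70 and 8.48 against 29.8 and 19.1, and NLGN2, a synaptic neuroligin, 4.25 and 4.29 against 9.37 and 13.4. The secreted guidance cues SEMA3A and SLIT2 were on the other side, at 21.4 and 22.5 FPKM against 4.27 and 9.26, and at 9.79 and 9.63 against 2.49 and 4.16. No gene named here overlapped between the groups, which holds for every called gene.

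Ribosome biogenesis, a list drawn up in the same way, had 9 of 48 members called higher and none lower, with 44 positive differences and a median of 0.42, or 0.72 without the first primed library and 0.17 without the second. NOP58, a core protein of small nucleolar ribonucleoproteins, had 130.7 and 129.96 FPKM in male naive versus 81.2 and 73.4 in primed libraries (log2 difference 0.75, SE 0.12, limma adjusted p = 0.0260). GNL2, a nucleolar GTPase, had 63.6 and 62.6 against 40.2 and 37.8. The ribosomal protein genes described above had negative differences in the same libraries. By expression level, 2.43% of genes under 10 FPKM and 4.60% of genes over 100 FPKM were called higher, while 1.81% and 0.77% were called lower.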
